A study of Rattus norvegicus with 12 samples.

Results

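A set of 10 genes of the colon's enteroendocrine cells were followed across 12 arrays of rat colon, 6 from animals on a high-protein diet and 6 from animals on a normal-protein diet. They were taken by gene name from the array: Tph1, Chga, Chgb, Sst, Gcg, Pyy, Cck, Insl5, Neurod1 and Pam. Of the 10 genes, 9 had a spot and 8 were bright enough to be tested, among 10451 genes tested in all. Insl5, an insulin-like peptide of colonic L cells, had no spot under that name. Neurod1, a transcription factor of the enteroendocrine lineage, had 1 probe that was flagged good on 0 of the 12 arrays. Its normalized log2 intensity lay between 5.90 and 6.51, so it was not well above background on any array. No probe's level can be set against that of another probe, so each gene was compared only with itself between arrays.

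Both groups were male Wistar rats weighing 180 to 200 g, labelled as fed high protein or normal protein for 6 weeks, and total RNA of tissue labelled colonic epithelium was hybridised with Cy3. The protein content of the diets, the stretch of colon sampled and whether each array came from its own animal were not given in the sources, so every p-value below measures only the spread between these 12 samples. The arrays lay on 3 slides with 2 high-protein and 2 normal-protein arrays on each. Between 42.67% and 55.86% of the gene spots on an array were flagged good. All 14 epithelial markers were tested, but so were all 14 smooth muscle markers, whose mean log2 value lay between 10.1 and 11.1 on high protein and between 10.8 and 11.3 on normal protein. The RNA was therefore not of epithelium alone.

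Enteroendocrine cells are scattered single cells of the gut epithelium that sense the contents of the lumen and release hormones. Enterochromaffin cells make serotonin, which Tph1 starts by hydroxylating tryptophan, and store it in granules with the chromogranins Chga and Chgb. L cells, which are frequent in the distal gut, make the proglucagon peptides of Gcg and peptide YY, while D cells make somatostatin. Hormones such as peptide YY and cholecystokinin are amidated at their end by the enzyme Pam before they are active. Hox genes keep a record of position along the gut: Hoxb13 is expressed in its most distal part, and Hoxb6 and Hoxb7 in more proximal parts.

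The upstream sequences of 4 genes are given because these genes stand for the 2 sets whose levels varied together among the arrays: Tph1 and Chgb for the enterochromaffin genes, and Gcg and Pyy for the L cell hormones. Of the 10 genes, 8 were found in the RefSeq promoter table of the GRCr8 assembly. Each line holds the 250 bases before the annotated start, written 5′ to 3′ on the gene's own strand. They lie at chr1:106314629-106314878 on the minus strand for Tph1, chr3:140496462-140496711 on the plus strand for Chgb, chr3:67531534-67531783 on the minus strand for Gcg and chr10:87562471-87562720 on the minus strand for Pyy. Capitals mark matches, on either strand, to the E-box CANNTG or to the TATA box core TATAA.
Tph1: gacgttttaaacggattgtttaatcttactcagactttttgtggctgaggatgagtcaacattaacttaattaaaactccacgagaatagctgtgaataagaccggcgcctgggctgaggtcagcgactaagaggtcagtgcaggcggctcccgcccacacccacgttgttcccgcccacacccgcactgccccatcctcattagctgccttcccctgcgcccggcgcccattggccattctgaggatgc
Chgb: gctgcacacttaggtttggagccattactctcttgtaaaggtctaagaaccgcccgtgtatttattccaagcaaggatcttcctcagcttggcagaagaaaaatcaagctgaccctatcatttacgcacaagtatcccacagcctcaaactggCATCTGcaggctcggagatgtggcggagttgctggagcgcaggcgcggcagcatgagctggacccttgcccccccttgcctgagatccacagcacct
Gcg: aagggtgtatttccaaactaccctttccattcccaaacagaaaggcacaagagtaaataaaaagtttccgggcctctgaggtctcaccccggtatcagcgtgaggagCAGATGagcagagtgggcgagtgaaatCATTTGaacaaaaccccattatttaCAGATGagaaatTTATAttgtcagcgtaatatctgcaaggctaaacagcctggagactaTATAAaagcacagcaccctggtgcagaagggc
Pyy: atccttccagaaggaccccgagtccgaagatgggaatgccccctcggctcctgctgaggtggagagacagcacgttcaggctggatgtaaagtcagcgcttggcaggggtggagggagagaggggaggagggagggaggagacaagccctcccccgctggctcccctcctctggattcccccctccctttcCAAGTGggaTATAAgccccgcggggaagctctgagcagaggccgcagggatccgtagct
The E-box had 0 matches in the Tph1 window, 1 in that of Chgb, 3 in that of Gcg and 1 in that of Pyy, and 65.5% of all 33469 promoters of the table held one. The TATA box core was found in the windows of Gcg, with 2 matches, and Pyy, with 1, and in 24.0% of all promoters. The cAMP response element TGACGTCA had no match in these 4 windows and was in 1.59% of all promoters. A match describes the letters only.

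Over all 12 arrays, Tph1, Chga, Chgb and Sst were measured at lower levels on high protein and Pam at a higher level, but none of the 8 genes passed the test. With limma and Benjamini-Hochberg adjustment over 10451 genes, 0% of all genes had an adjusted p under 0.05, the smallest being 0.68. Tph1 and Pam, 2 of the 8 genes, had an unadjusted p under 0.05, against 6.64% of all genes tested (694 genes, 383 higher and 311 lower on high protein). The differences of 6 of the 8 genes were below 0, with a median of -0.58 on the log2 scale. Among all genes tested the median difference was 0.01, and 48.52% were below 0. The 2 diets overlapped in each of the 8 genes, while 0.383% of all genes had diets that did not overlap.

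**Figure D1:**
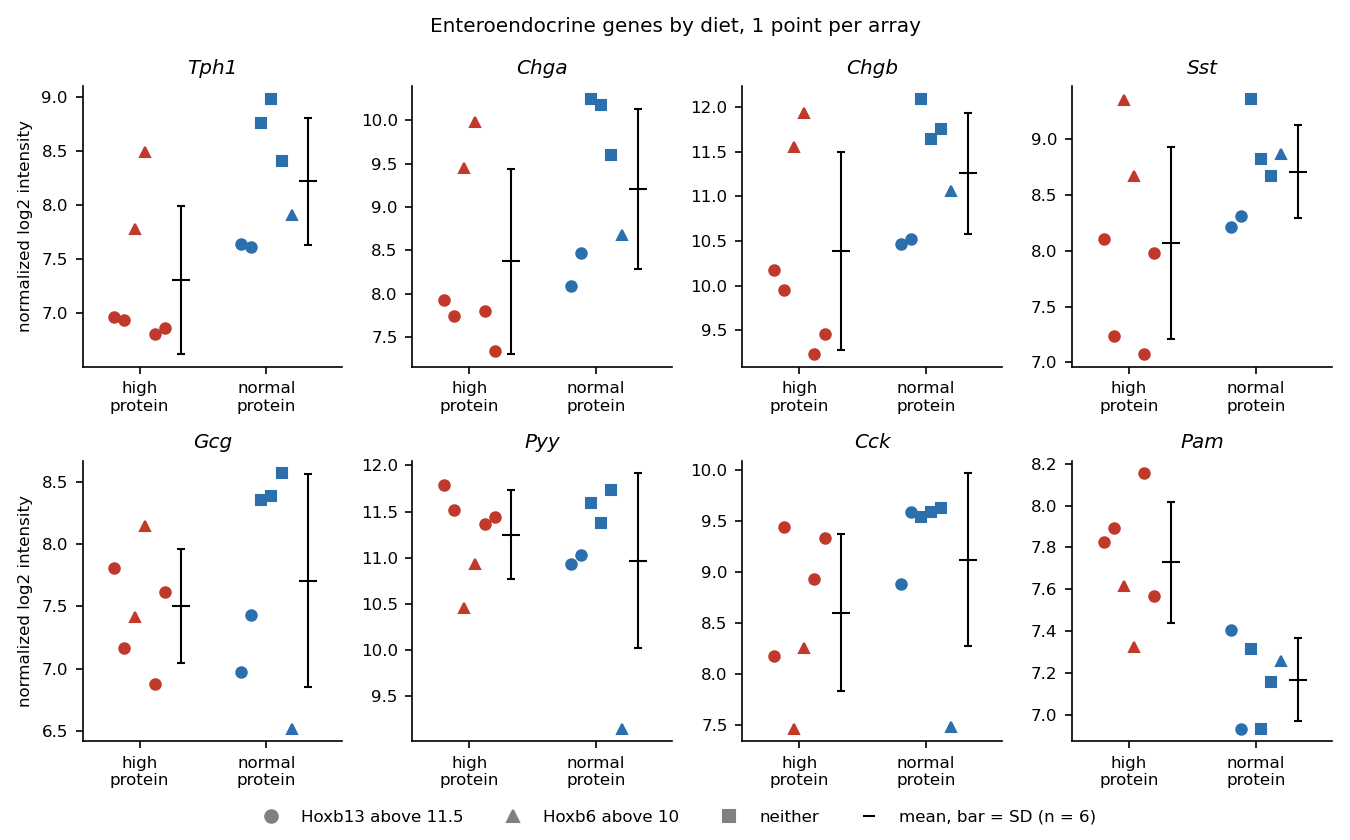
Normalized log2 intensity of the 8 tested genes, 1 point per array, with high-protein arrays left and normal-protein arrays right in each panel, each panel on its own scale. Marker shape gives the Hox genes of the array (circle, Hoxb13 above 11.5; triangle, Hoxb6 above 10; square, neither), and bars give the mean and SD of 6 arrays; for Tph1, Chga, Chgb and Sst the circles lie at the bottom of both diets.

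Tph1, the enzyme that sets the rate of serotonin synthesis outside the brain, was lowest in 4 high-protein arrays. Its log2 intensity on high protein had a lowest value of 6.80, a median of 6.95 and a highest value of 8.49, against a lowest value of 7.61, a median of 8.16 and a highest value of 8.98 on normal protein. High-protein replicates 1, 2, 5 and 6 lay below every normal-protein array, and replicates 3 and 4 lay within the normal-protein range. Tph1 averaged 7.30 ± 0.68 on high protein and 8.22 ± 0.58 on normal protein (SD, n = 6 each). The difference was -0.91 ± 0.33 (SE, limma adjusted p = 0.699). The 95% interval of that difference ran from -1.62 to -0.21. A second Tph1 probe, flagged good on 8 of the 12 arrays, differed by -0.56 ± 0.26 (SE). The arrays without that flag were high-protein replicates 1, 2, 5 and 6, where its signal minus background was 23, 22, 15 and 8. It thus passed the filter only through the brighter arrays and gives no separate support for the difference. Among these bulk samples, fewer cells of a type and less RNA per cell cannot be told apart.

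The granule proteins of the same cells were spread more widely. Chga had a lowest log2 intensity of 7.35, a median of 7.86 and a highest of 9.97 on high protein, against 8.09, 9.14 and 10.25 on normal protein. The difference was -0.83 ± 0.51 (SE, limma adjusted p = 0.745), with 4 of 6 high-protein arrays below the normal-protein mean. Chgb had a lowest log2 intensity of 9.23, a median of 10.06 and a highest of 11.93 on high protein, against 10.46, 11.35 and 12.09 on normal protein. It differed by -0.87 ± 0.47 (SE, limma adjusted p = 0.726). In both genes high-protein replicates 1, 2, 5 and 6 were lower than every normal-protein array, as they were for Tph1, and high-protein replicates 3 and 4 were among the higher arrays. Sst, the somatostatin of D cells, differed by -0.64 ± 0.35 (SE, limma adjusted p = 0.726). It lay between 7.08 and 9.35, with a median of 8.04, on high protein, and between 8.22 and 9.36, with a median of 8.75, on normal protein.

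Gcg and Pyy, the L cell hormones, and Cck, the cholecystokinin gene, did not share that order of arrays. Gcg was dim, flagged good on 11 of 12 arrays, and had a lowest log2 intensity of 6.88, a median of 7.52 and a highest of 8.14 on high protein, against 6.52, 7.89 and 8.57 on normal protein. Its difference was -0.20 ± 0.35 (SE, limma adjusted p = 0.897). Pyy, which slows gut transit and lowers food intake, lay between 10.45 and 11.79, with a median of 11.41, on high protein, and between 9.15 and 11.74, with a median of 11.20, on normal protein. The difference of Pyy was 0.28 ± 0.38 (SE, limma adjusted p = 0.868), and it was -0.08 without normal-protein replicate 6. That array gave the lowest Pyy and the lowest Gcg value of the series. A second Pyy probe, flagged good on all 12 arrays, differed by 0.34 ± 0.42 (SE). Cck had a lowest log2 intensity of 7.46, a median of 8.59 and a highest of 9.44 on high protein, against 7.48, 9.56 and 9.63 on normal protein. Its difference of -0.52 ± 0.42 (SE, limma adjusted p = 0.798) was -0.85 without normal-protein replicate 6 and -0.29 without high-protein replicate 3, the lowest arrays of their diets.

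Pam had the smallest spread of the 8 genes and the smallest p. On high protein its log2 intensity had a lowest value of 7.33, a median of 7.72 and a highest value of 8.15, against a lowest value of 6.93, a median of 7.21 and a highest value of 7.41 on normal protein. All 6 high-protein arrays were above the normal-protein mean, and the ranges met only because high-protein replicate 4, at 7.33, lay below normal-protein replicate 1, at 7.41. Pam averaged 7.73 ± 0.29 on high protein and 7.17 ± 0.20 on normal protein (SD, n = 6 each). The difference of 0.56 ± 0.14 (SE, 95% interval 0.27 to 0.86) had a limma adjusted p of 0.680 over all genes. The slides gave Pam differences of 0.50, 0.24 and 0.95 for slides 1 to 3, and Tph1 differences of -1.25, -0.48 and -1.01. Chga, Chgb and Sst were likewise lower on high protein within each of the 3 slides, whereas Gcg and Cck differed by 0.34 and 0.24 on slide 2 and Pyy by -0.29 on slide 3. The slides were not alike in Hoxb13, whose levels are given below. On slide 1 high-protein replicates 1 and 2 and normal-protein replicate 1 were above 11.5, and normal-protein replicate 3 was below it. On slide 2 only high-protein replicate 6 was above it. Slide 3, with high-protein replicate 5 and normal-protein replicate 2 above it, was the only slide with the diets alike in this.

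The arrays differed in Hox genes in a way that overlapped with diet. Hoxb13 had log2 intensities of 12.03, 12.56, 6.12, 7.49, 12.49 and 12.26 in high-protein replicates 1 to 6, against 12.05, 11.996, 8.26, 5.83, 9.32 and 6.18 in normal-protein replicates 1 to 6. A level of 11.5 put 4 high-protein and 2 normal-protein arrays above it and 2 high-protein and 4 normal-protein arrays below it. The arrays nearest that level were normal-protein replicate 2 above it, at 11.996, and normal-protein replicate 5 below it, at 9.32. Hoxb6 was at 10.87, 10.82 and 10.95 in high-protein replicates 3 and 4 and normal-protein replicate 6, and between 6.51 and 7.49 in the other arrays. Hoxb7 was above 10 in the same 3 arrays.

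The 8 genes divided along these levels. Tph1 lay between 6.80 and 7.64 in the 6 arrays with Hoxb13 above 11.5 and between 7.77 and 8.98 in the 6 arrays below it. The ranges for Chga were 7.35 to 8.47 above the level and 8.68 to 10.25 below it. Those for Chgb were 9.23 to 10.52 above the level and 11.06 to 12.09 below it, and those for Sst were 7.08 to 8.31 above and 8.67 to 9.36 below. For these 4 of the 8 genes the 2 sets of arrays did not overlap, against 3.57% of all genes tested, while Gcg, Pyy, Cck and Pam overlapped. Hoxb13 levels were compared as a description and without a test. Slc18a1, the vesicular transporter that loads serotonin into granules, also separated the arrays, with 6.37 to 6.94 above the level and 7.86 to 8.47 below it.

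Pyy and Cck were instead lowest on average where Hoxb6 was high. Pyy averaged 11.35 in the 6 arrays with high Hoxb13, 10.18 in the 3 arrays with high Hoxb6 and 11.57 in the 3 arrays with neither. Cck averaged 9.06 with high Hoxb13, 7.73 with high Hoxb6 and 9.58 with neither. The Cck values overlapped: Hoxb6-high high-protein replicate 4, at 8.25, lay above high-protein replicate 1, with high Hoxb13, at 8.17. All 3 Hoxb6-high arrays were at or below 10.93 for Pyy, and the other 9 arrays were at or above it. Gcg averaged 7.31 with high Hoxb13, 7.36 with high Hoxb6 and 8.43 with neither, so it was highest in normal-protein replicates 3, 4 and 5. Tph1, Chga and Chgb were also highest on average in the arrays with neither, at 8.71, 10.00 and 11.83, but the Hoxb6-high arrays overlapped with these in each of the 3 genes. Sst did not separate the Hoxb6-high arrays, at a mean of 8.96, from those with neither, at 8.95.

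**Figure D2:**
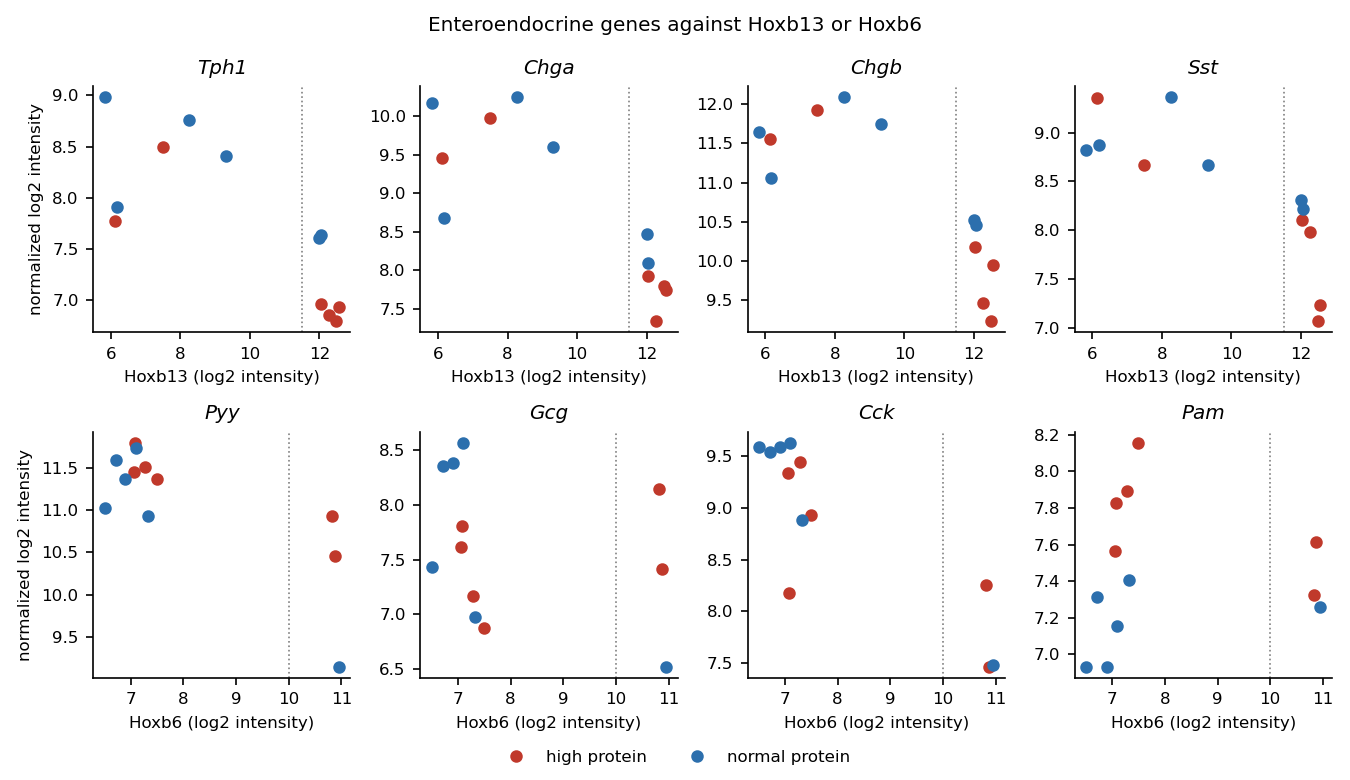
Log2 intensity of the 8 tested genes against log2 intensity of Hoxb13 (upper panels) or Hoxb6 (lower panels), 1 point per array, high protein in red and normal protein in blue, with the levels of 11.5 and 10 as dotted lines. Tph1, Chga, Chgb and Sst are lower in all 6 arrays right of the Hoxb13 line, and Pyy is at or below 10.93 in the 3 arrays right of the Hoxb6 line.

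Among the arrays with Hoxb13 above 11.5, the enterochromaffin genes and Sst were lower in the 4 high-protein arrays than in the 2 normal-protein arrays. Hoxb13 itself was at 12.03, 12.56, 12.49 and 12.26 in high-protein replicates 1, 2, 5 and 6, against 12.05 and 11.996 in normal-protein replicates 1 and 2. Diet and this remaining Hoxb13 difference were not separated within the level. Tph1 was at 6.97, 6.93, 6.80 and 6.86 in high-protein replicates 1, 2, 5 and 6, against 7.64 and 7.61 in normal-protein replicates 1 and 2, an order kept for the genes that follow. Chga was at 7.93, 7.75, 7.80 and 7.35 on high protein, against 8.09 and 8.47 on normal protein. Chgb was at 10.18, 9.95, 9.23 and 9.46 on high protein, against 10.46 and 10.52 on normal protein. The diets did not overlap in any of these 3 genes, nor in Sst, at 8.11, 7.24, 7.08 and 7.98 on high protein against 8.22 and 8.31 on normal protein. Pyy and Pam did not overlap either and were higher on high protein. Pyy was at 11.79, 11.52, 11.37 and 11.44 on high protein, against 10.93 and 11.03 on normal protein. Pam was at 7.83, 7.89, 8.15 and 7.57 on high protein, against 7.41 and 6.93 on normal protein.

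In groups as small as 4 and 2, 4 of the 8 genes were thus lower on high protein without overlap, against 5.50% of all genes tested. Higher on high protein without overlap were 2 of the 8 genes, against 6.47% of all genes tested. The differences were -0.73 ± 0.26 for Tph1, -0.79 ± 0.29 for Chgb and 0.69 ± 0.19 for Pam (SE, limma with 4 groups of diet and Hoxb13 level). These were the 3 of 8 genes with an unadjusted p under 0.05, against 3.13% of all genes tested. After adjustment over 10451 genes 0% of the genes passed, and each of the 8 had a limma adjusted p of 0.9997. Gcg and Cck overlapped, with differences of 0.16 ± 0.50 and -0.27 ± 0.58 (SE).

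Among the arrays with Hoxb13 below 11.5, the diets overlapped in most of the 8 genes. Tph1 was at 7.77 and 8.49 in high-protein replicates 3 and 4, against 8.76, 8.98, 8.40 and 7.91 in normal-protein replicates 3 to 6. Chga was at 9.45 and 9.97 on high protein, against 10.25, 10.17, 9.59 and 8.68 on normal protein. The Tph1 difference of -0.38 ± 0.26 (SE) was -0.02 without high-protein replicate 3 and -0.74 without high-protein replicate 4. The diets overlapped in Tph1 and in Chga, at 0.04 ± 0.37 (SE), and likewise in Chgb and Sst, at 0.11 ± 0.29 and 0.08 ± 0.31 (SE). Cck was at 7.46 and 8.25 on high protein, against 9.54, 9.59, 9.63 and 7.48 on normal protein, a difference of -1.20 ± 0.58 (SE, limma adjusted p = 0.663). Both high-protein arrays and the low normal-protein array were those with high Hoxb6, and with 3 Hox levels as a block over all 12 arrays Cck differed by -0.05 ± 0.28 (SE). Pam was at 7.61 and 7.33 on high protein, against 7.32, 6.93, 7.15 and 7.26 on normal protein, and was the 1 gene of 8 without overlap, against 15.0% of all genes tested. With limma 0 of the 8 genes had an unadjusted p under 0.05, against 7.62% of all genes tested. Of all genes 0.00957% passed after adjustment, which was 1 gene, Pbld1, and none of the 8.

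The difference of the diet effect between the Hoxb13 levels was itself tested. It passed for 0% of all genes after adjustment, and at an unadjusted p under 0.05 for 0 of the 8 genes and 4.48% of all genes. Chgb came nearest, at -0.89 ± 0.42 (SE, limma adjusted p = 0.996), followed by Sst at -0.74 ± 0.44 (SE). None of the 8 genes was thus shown to differ by diet more at one Hoxb13 level than at the other. The intervals were wide: that of Tph1 ran from -1.17 to 0.46.

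With the Hoxb13 level as a block in the fit over all 12 arrays, the differences of the 4 genes that followed Hoxb13 were smaller than without it. Tph1 differed by -0.56 ± 0.19 (SE, limma adjusted p = 0.825), Chga by -0.27 ± 0.27, Chgb by -0.34 ± 0.24 and Sst by -0.29 ± 0.23 (SE). With single arrays left out these block values ran from -0.44 to -0.12 for Chga, from -0.52 to -0.22 for Chgb and from -0.51 to -0.18 for Sst, the smallest in each case without normal-protein replicate 2. Pam differed by 0.50 ± 0.14 (SE, limma adjusted p = 0.792) and Cck by -0.74 ± 0.41 (SE). Tph1 and Pam were again the 2 of 8 genes at an unadjusted p under 0.05, against 5.84% of all genes, and 0% of all genes passed after adjustment. A block of 3 Hox levels (Hoxb13 above 11.5, Hoxb6 above 10, neither), chosen after the values were seen, gave another order. Pyy then differed by 0.88 ± 0.19 (SE, limma adjusted p = 0.596, the lowest of a range up to 0.964 over its alternatives), Pam by 0.53 ± 0.16, Gcg by 0.53 ± 0.26, Tph1 by -0.41 ± 0.20 and Sst by -0.40 ± 0.27 (SE). The other values with this block were -0.30 ± 0.28 for Chgb, -0.05 ± 0.28 for Cck and -0.04 ± 0.29 for Chga (SE). Of the 3 levels, the one with neither held no high-protein array, and that with high Hoxb6 held 1 normal-protein array, replicate 6. Without that array the block gave 0.55 for Pyy, 0.16 for Gcg, -0.27 for Cck and -0.73 for Tph1, the same values as among the arrays with Hoxb13 above 11.5. Without the 3 Hoxb6-high arrays, likewise chosen after the values were seen, Tph1 differed by -1.39, Chga by -1.61, Chgb by -1.59 and Sst by -1.08, with limma adjusted p-values between 0.143 and 0.193. That subset holds 4 high-protein arrays, all with high Hoxb13, and 5 normal-protein arrays, of which 3 had low Hoxb13.

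**Figure D3:**
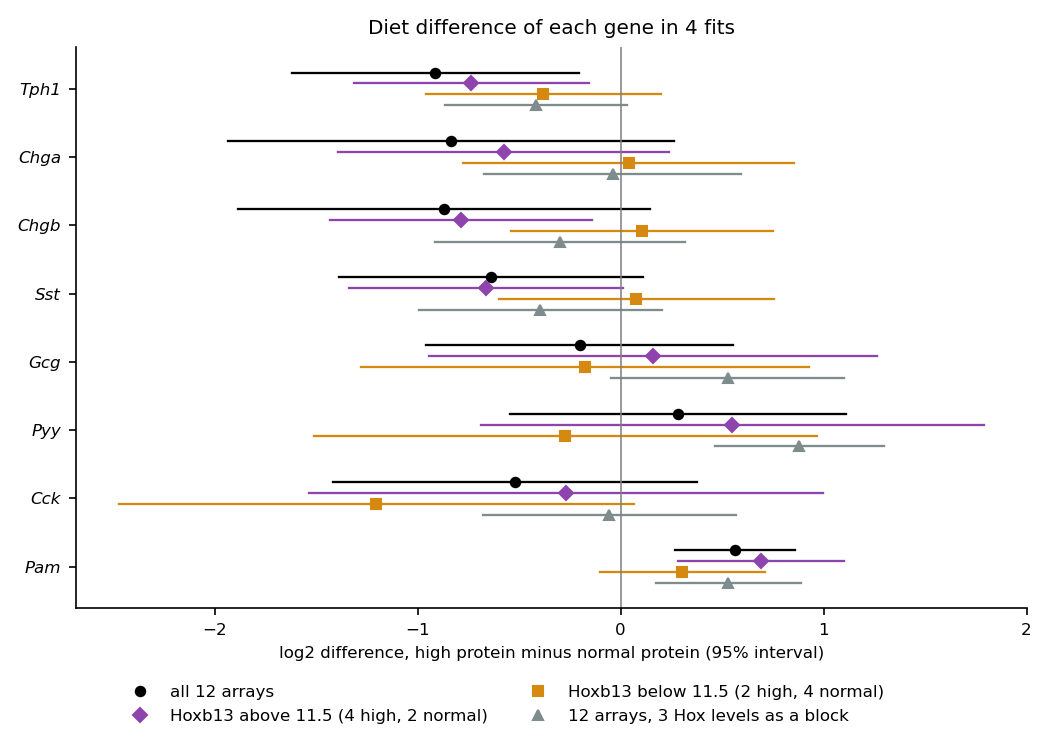
Difference of normalized log2 intensity, high protein minus normal protein, of the 8 tested genes with 95% intervals from 4 limma fits: all 12 arrays, arrays with Hoxb13 above 11.5, arrays below it, and 12 arrays with 3 Hox levels as a block. Pam is above 0 in all 4, Tph1 is below 0 in all 4, and Pyy moves between -0.27 and 0.88.

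The 8 genes also varied together among arrays of like Hoxb13 level. After the mean of each level was subtracted, Pearson's r over the 12 arrays was 0.92 between Gcg and Pyy. It was 0.82 between Tph1 and Chga, 0.77 between Chga and Chgb and 0.72 between Tph1 and Chgb. Pam ran against Tph1, at -0.73, while Sst reached no more than 0.55, with Chgb. These coefficients describe arrays that share diet, slide, signal and cell makeup, and carry no p-value. Gcg and Pyy were thus the closest pair, and Tph1, Chga and Chgb were a set of 3 with r of at least 0.72. Normal-protein replicate 6 was the lowest array for both Gcg, at 6.52, and Pyy, at 9.15, and its Gcg spot was not flagged good. The Hoxb6 difference among the arrays with low Hoxb13 was not subtracted. How far the r of Gcg and Pyy rests on these arrays was not tested.

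**Figure D4:**
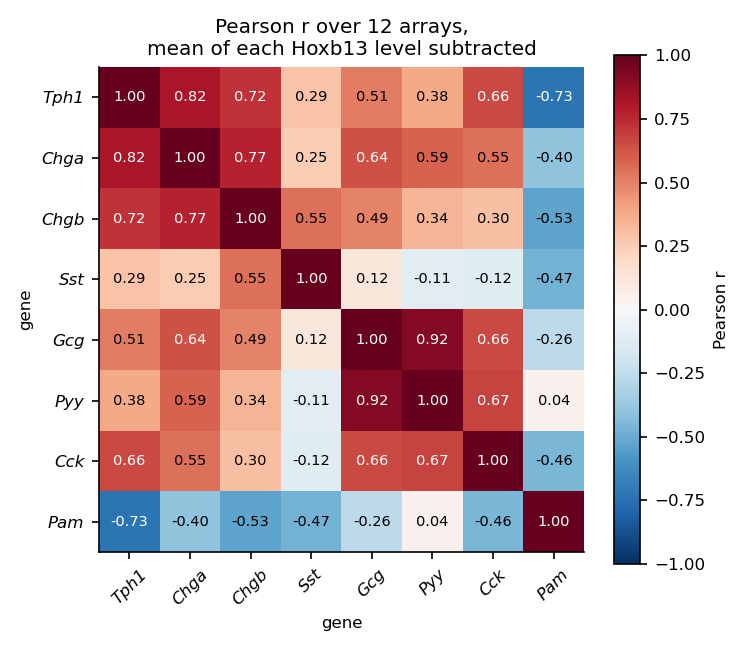
Pearson's r between each 2 of the 8 tested genes over 12 arrays after the mean of each Hoxb13 level was subtracted, in colour and as numbers, with red for positive and blue for negative values. The highest value off the diagonal is 0.92, between Gcg and Pyy, and the lowest is -0.73, between Tph1 and Pam.

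By the same measure, the genes most like each of the 8 were found among all tested genes with a symbol. For Pyy these were the alcohol dehydrogenase genes Adh4, at 0.97, and Adh1c, at 0.95, and Lsr, a tight junction protein gene, at 0.93. Adh4 was also first for Gcg, at 0.93, followed by the potassium channel gene Kcnk5, at 0.92. Adh4 was itself dim, with log2 intensities from 5.84 to 6.98. Chga was nearest to Scin, at 0.93, and to Kit and Cpa3, at 0.93 and 0.91, which are among the mast cell markers given below. Without subtracting the level means, r with Chga was 0.585 for Scin, 0.827 for Kit and 0.376 for Cpa3. Tph1 was nearest to Cby1, at 0.90, and Chgb to Cryl1, at 0.88. Without subtracting the level means these were 0.699 and 0.799, and Cby1 ranged only from 6.48 to 6.78. For Cck they were Nherf1, at 0.95, and Mptx1, a pentraxin gene, at 0.93, whose log2 intensity ranged from 6.16 to 14.42 over the arrays. Pam was nearest to Cblb, a ubiquitin ligase gene, at 0.92, and Sst to Dpcd, at 0.81.

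The other genes of the serotonin pathway lay on both sides of 0. Of 12 genes of synthesis, storage, uptake and breakdown, 10 were tested, of which 7 were above 0, 3 below 0 and 0 past the adjusted threshold, with a median difference of 0.05. With the Hoxb13 level as a block 6 of the 10 were below 0, with a median of -0.01. Maoa, the oxidase that breaks serotonin down, had a lowest log2 intensity of 9.08, a median of 9.49 and a highest of 10.39 on high protein, against 8.72, 8.88 and 9.42 on normal protein. Its difference was 0.65 ± 0.21 (SE, limma adjusted p = 0.695), and 0.77 with the Hoxb13 level as a block. Gch1, which starts the making of the cofactor that Tph1 needs, differed by -0.40 ± 0.21 (SE), and Slc18a1 by -0.60 ± 0.42 (SE). Spr, a later enzyme of the same cofactor, differed by 0.13 ± 0.09 (SE), each with a limma adjusted p above that of Maoa. Tph2, the tryptophan hydroxylase of neurons, was flagged good on no array.

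Among 18 other gut peptides and neuropeptides, 10 were tested, of which 9 were below 0 and 0 past the adjusted threshold, with a median difference of -0.27. With the Hoxb13 level as a block 7 were below 0, with a median of -0.16. Guca2a, the guanylin that drives fluid secretion, differed by -0.42 ± 0.24 (SE), Vip by -0.36 ± 0.29, Grp by -0.35 ± 0.28 and Calcb by -0.34 ± 0.17 (SE). Of the granins and prohormone processing genes 8 of 16 were tested, 6 of them below 0 and 0 past the threshold, with a median of -0.17. Cpe, the carboxypeptidase that trims prohormones, differed by -0.20 ± 0.14 (SE), Scg5 by -0.19 ± 0.15, Scgn by -0.16 ± 0.14 and Rph3al by 0.11 ± 0.09 (SE). The transcription factors of the lineage were mostly too dim: 5 of 19 were tested and 8 were flagged good on no array, Neurog3 among them. All 5 were above 0, with a median of 0.10 and 0 past the threshold, and 1 was below 0 with the Hoxb13 level as a block. Foxa1 and Foxa2, which regulate Gcg in mice, differed by 0.28 ± 0.12 and 0.47 ± 0.39 (SE), Atoh1 by 0.10 ± 0.13 and Sox4 by 0.05 ± 0.14 (SE).

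Receptors were sparse as well. Of 19 nutrient sensors of enteroendocrine cells 4 were tested, 3 of them below 0 and 0 past the adjusted threshold, with a median of -0.08. Ffar4, a receptor for long-chain fatty acids, lay between 9.03 and 10.06, with a median of 9.44, on high protein, and between 9.66 and 10.17, with a median of 9.94, on normal protein. Its difference was -0.42 ± 0.16 (SE, limma adjusted p = 0.699), and -0.27 with the Hoxb13 level as a block. The calcium and amino acid sensor Casr differed by 0.21 ± 0.29 (SE), Ffar2, a receptor for short-chain fatty acids, by -0.10 ± 0.20 and Piezo2 by -0.06 ± 0.08 (SE). Of 22 receptors and clearing enzymes of the hormones 5 were tested, 3 above 0, 2 below 0 and 0 past the threshold, with a median of 0.01. With the Hoxb13 level as a block 4 of the 5 were below 0, with a median of -0.17. Dpp4, the protease that inactivates the Gcg product GLP-1, differed by 0.49 ± 0.45 (SE) and by -0.02 with the Hoxb13 level as a block. The somatostatin receptor gene Sstr2 differed by -0.37 ± 0.25 (SE), and the serotonin receptor genes Htr2b and Htr3a by -0.20 ± 0.11 and 0.20 ± 0.19 (SE).

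**Figure D5:**
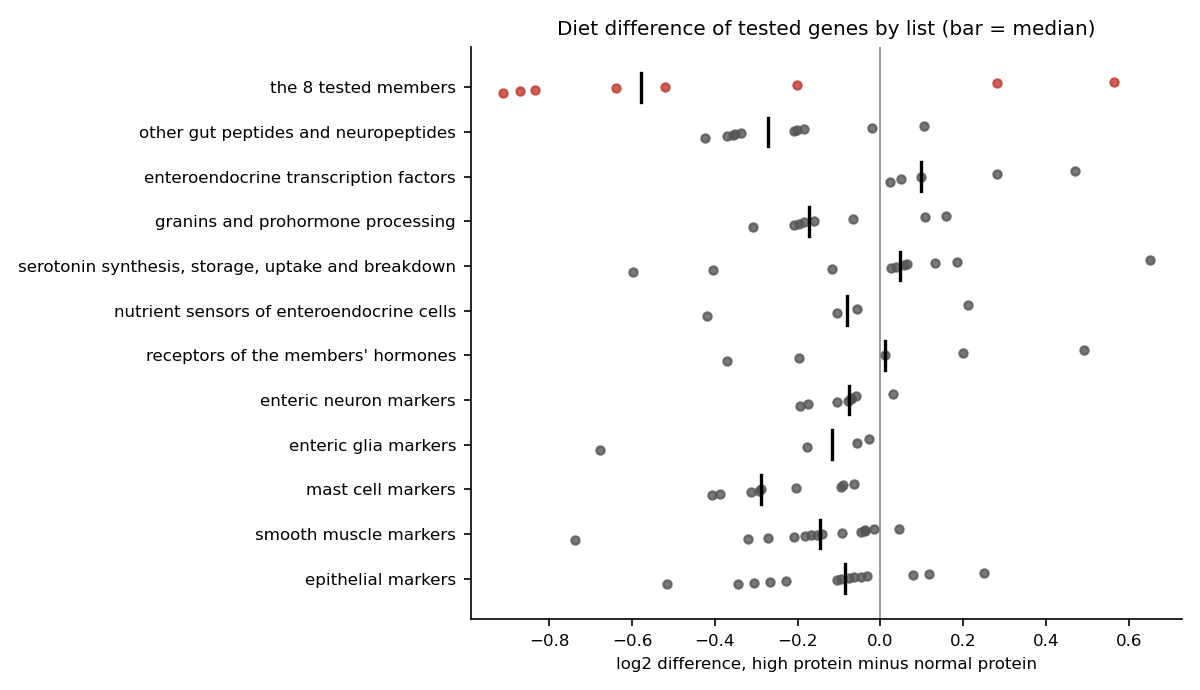
Log2 difference, high protein minus normal protein, over 12 arrays for each tested gene of the members and of 11 further lists, 1 point per gene with a bar at the list's median; the genes of colon position are not drawn. The 8 members have a median of -0.58, and the medians of the other lists drawn lie between -0.29 and 0.10.

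Among the markers of other cell types 0 genes passed the adjusted threshold. Mast cells also make serotonin through Tph1 in rodents, and 9 of 15 mast cell markers were tested, all 9 below 0, with a median of -0.29, and of -0.35 with the Hoxb13 level as a block. Their mean log2 value lay between 7.49 and 8.23 on high protein and between 7.62 and 8.68 on normal protein. Of the untested mast cell markers, Ms4a2 and Tpsb2 were flagged good on no array. Cpa3 differed by -0.31 ± 0.20 (SE), Mcpt8 by -0.41 ± 0.28, Cma1 by -0.39 ± 0.28 and Fcer1a by -0.20 ± 0.16 (SE). The mast cell means overlapped between the Hoxb13 levels, at 7.49 to 8.68 above 11.5 and 7.62 to 8.34 below it. Among the arrays above 11.5 the mast cell means did not overlap by diet. They were 7.96, 8.10, 8.22 and 7.49 on high protein, against 8.38 and 8.68 on normal protein. This was not particular to mast cells. The means of the epithelial markers and of the nutrient sensors were also lower on high protein without overlap, and those of the transcription factors were higher. Of all single genes tested, 5.50% were lower without overlap among these arrays. Cma1 differed by -0.65 with the Hoxb13 level as a block. The part of mast cells in the Tph1 difference was not tested.

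Enteric neurons hold peptides and chromogranins too. Of 17 neuron markers 8 were tested, 7 below 0, with a median of -0.07. With the Hoxb13 level as a block 3 were below 0, with a median of 0.03. The mean log2 value of the neuron markers lay between 7.12 and 7.88 on high protein and between 7.24 and 7.72 on normal protein. Snap25 differed by -0.19 ± 0.13 (SE), Uchl1 by -0.18 ± 0.17, Elavl4 by -0.11 ± 0.09 and Tubb3 by -0.08 ± 0.13 (SE), and Elavl3 was flagged good on no array. Of 8 glia markers 4 were tested, all 4 below 0, with a median of -0.12, and 2 were below 0 with the Hoxb13 level as a block. Their mean lay between 6.51 and 7.13 on high protein and between 6.62 and 8.45 on normal protein, the highest value being that of normal-protein replicate 6, the array with the lowest Pyy. S100b, a glia gene, was at most 8.15 on high protein and at 11.72 in its highest normal-protein array, a difference of -0.68 ± 0.69 (SE). Sox10 differed by -0.06 ± 0.10 and Ngfr by -0.03 ± 0.08 (SE). Smooth muscle markers were below 0 in 13 of 14 genes, with a median of -0.15, among them Pln at -0.74 ± 0.28, Tagln at -0.32 ± 0.18, Acta2 at -0.21 ± 0.17 and Lmod1 at -0.17 ± 0.14 (SE). Epithelial markers were below 0 in 11 of 14 genes, with a median of -0.09, among them Krt20 at -0.52 ± 0.25, Cdx1 at -0.30 ± 0.14 and Tspan8 at -0.23 ± 0.13, while Elf3 was at 0.25 ± 0.15 (SE). Of 15 genes of colon position 9 were tested, 8 above 0, with a median of 0.12, and 4 of the 9 were below 0 with the Hoxb13 level as a block. Hoxd10 differed by 0.90 ± 0.35 (SE, limma adjusted p = 0.700) and Hoxb13 by 1.55 ± 1.43, Hoxb6 by 0.85 ± 0.90 and Hoxa11 by -0.38 ± 0.25 (SE). The part of these cells and of position in the differences by diet was not tested beyond the blocks given above.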

How the data were processed

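Total RNA from 12 samples was measured on one-colour Agilent rat arrays. GenePix Pro 6.1.0.4 read the spots at 532 nm, per the file headers, and the deposited values are intensity on a linear scale, not normalized. RMA is named, without version or role, in the submitters' processing notes. The series value table holds log2 values deposited by the authors, with IDs displaced by 1 row. After moving them, it correlated with the scanner values at 0.942 to 0.975 over 4481 bright probes. Its column medians ran from 4.36 to 4.45, and its centring is unknown.

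The mean pixel and local background median entered normexp (offset 50), and controls were then dropped. The arrays were quantile normalized on the log2 scale, and repeated spots of a probe were averaged. Tested probes had a share of 0.5 or more of their spots flagged good (flag 100) on 6 or more of the 12 arrays. That flag's meaning is taken from the GenePix format. For each gene the probe with the highest mean was used. This left 10451 genes, 8854 with a symbol, from 13204 probes, of which 1467 without a name were left out. Names came from RefSeq accessions, which matched 18355 of 22031 probes with one, or else from the array.

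The diet fits used lmFit and eBayes of limma 3.58.1 under R 4.3.3, with Benjamini-Hochberg adjustment over all genes tested and a threshold of 0.05. Contrasts within Hoxb13 levels came from 4 groups sharing 1 estimate of the spread. The fit was checked on simulated data from which the means of diet and Hoxb13 level had been removed. That check does not cover the uneven Hoxb13 levels of the 2 diets. The number of arrays limits the precision. Members and gene lists were chosen with earlier results of these data known. From each list the 4 tested genes of smallest p were named, apart from 1 that is not reported here, and for each member up to 3 genes of highest correlation. Same-numbered arrays of the 2 diets correlated at -0.11 to 0.40 and were not treated as pairs. Alternatives were other background corrections and scalings, other filters, array weights, slide, Hox level and replicate number as blocks, single slides, other probes, the value table and each array left out.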

Additional observations from a re-analysis of the deposited data

Results flagged for a closer look

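Normal-protein replicate 6 stood apart from the other 5 arrays of its diet in 2 genes. For Pyy its log2 intensity was 9.15, and the next lowest normal-protein array was at 10.93. For Cck it was 7.48, and the next lowest normal-protein array was at 8.89. The gap to the nearest array, divided by the range of the 6 arrays, was 0.688 for Pyy and 0.655 for Cck. Both ratios exceeded Dixon's critical value of 0.625 for 6 samples at the 95% level. Of 16 groups examined, 8 genes in 2 diets, 2 were singled out, and chance singles out about 1 in 20 groups. The same array was 1 of the 3 with high Hoxb6 and had the highest glia marker mean, at 8.45. The part of either in its Pyy and Cck values was not tested.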

How the results depend on the processing

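No alternative brought any of the 8 genes past the adjusted threshold of 0.05. Of 486 recomputed values, 460 kept their direction and their side of the threshold, 24 turned direction and 2 counts of called genes moved. Tph1, Chga, Chgb, Sst and Pam kept their direction in every alternative run on the diet comparison of all arrays, Tph1 between -1.39 and -0.41 and Pam between 0.24 and 0.95. On slide 2 Gcg was at 0.34 and Cck at 0.24, on slide 3 Pyy was at -0.29, and with 3 Hox levels as a block Gcg was at 0.53, or at 0.16 without normal-protein replicate 6. Between 0 and 4 genes were called: 1 within slide 3 (Bik) and 4 with 3 Hox levels as a block (Mt1, Mt2A and 2 known by a number only), or 0 with that block and without normal-protein replicate 6. With single arrays left out, the values over all arrays ran from -0.44 to -0.03 for Gcg, from -0.081 to 0.44 for Pyy and from -0.85 to -0.29 for Cck. Among arrays with Hoxb13 above 11.5 they ran from -0.067 to 0.39 for Gcg and from -0.62 to 0.085 for Cck. Below it they ran from -0.74 to -0.02 for Tph1, from -0.29 to 0.30 for Chga, from -0.0853 to 0.29 for Chgb, from -0.65 to 0.19 for Gcg and from -0.26 to 0.42 for Sst. With the Hoxb13 level in the fit they ran from -0.23 to 0.17 for Gcg and from -0.12 to 0.33 for Pyy. Over all arrays, leaving out normal-protein replicates 1, 3, 4, 5 or 6 or high-protein replicates 2, 4 or 5 moved Gcg by over 1.5 times, as did normal-protein replicates 5 or 6 or high-protein replicates 1 or 3 for Pyy. The cause of these turns was not tested. Median scaling shifted all genes by 0.10 and split the genes at an unadjusted p under 0.05 into 1128 higher and 78 lower, and 75th percentile scaling into 318 and 481, against 383 and 311. In both, 6 of the 8 genes stayed below 0. The value table gave -1.34 for Tph1 and 0.88 for Pam.

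With the replicate number as a block, Tph1 differed by -0.91 ± 0.14 (SE, limma adjusted p = 0.340, where all its alternatives ranged from 0.143 to 0.958) and 0 genes were called. Whether the numbers pair the arrays was not settled. Of 6 high-protein arrays 3 correlated best with the normal-protein array of their own number, namely replicates 1, 2 and 4. In replicates 1 to 4 the 2 diets also shared the Hoxb13 level, so number and level cannot be told apart there. The block changed no call. Without the filter on dim probes Neurod1 differed by 0.07 ± 0.09 (SE). Signal close to background limits Neurod1 and Gcg. Tph1 and Pam were also dim: signal minus background went down to 54 for Tph1 and lay between 55 and 217 for Pam. With signal minus local background in place of normexp, Tph1 differed by -1.30 and Pam by 0.83.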

Other observations

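Some genes were counted in the lists above but not named there. Ghrl, the ghrelin gene, ranged from 5.93 to 8.84 on the log2 scale over the 12 arrays, with a diet difference of -0.37 on high protein minus normal protein. The granule protein gene Ptprn2 ranged from 10.17 to 12.79, with a difference of -0.31. Both genes were chosen after their values were seen.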
